A study of Mus musculus with 18 samples.

Results

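Open chromatin was examined at 9 genes that mark bipolar cells of the mouse retina, namely Vsx1, Grm6, Trpm1, Cabp5, Prkca, Bhlhe22, Bhlhe23, Pcp2 and Gpr179. Each gene was taken from 10 kb upstream of its start to its end on GRCm38 (mm10) with GENCODE M21, and every listed peak overlapping that window was kept. The 9 genes, of 55450 in the annotation, held 746 of the 911837 peaks in the lists of all 18 libraries. Peaks that overlapped by at least 1 bp were merged into 89 regions, of which 61 had a peak in at least 2 libraries. These 61 are called consensus regions here, out of 73567 across the genome.

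The assay for transposase-accessible chromatin with sequencing (ATAC-seq), in which a transposase cuts and tags exposed DNA, was run on whole retinas of wild-type mice (the study used C57BL/6J) aged 3 or 18 months. At each age there were 3 retinas with intraocular pressure (IOP) held at 30 mmHg for 1 hour, 3 contralateral controls (the other eye of such an animal) and 3 untreated retinas, the first 2 kinds collected on day 2 by their labels. The treatment text shared by the labels also describes injection of dasatinib, a kinase inhibitor, or vehicle without assigning any library to either, and the study's text gives the interval after pressure as 3 days. No label ties an eye to an animal, so p-values measure the spread between these libraries only. The comparisons ask whether chromatin opens or closes with age in control retinas, and after a pressure rise at either age.

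Bipolar cells carry signals from photoreceptors to amacrine and ganglion cells. ON bipolar cells, to which rod bipolar cells belong, sense a fall in glutamate through the receptor mGluR6 (Grm6). In the dark this receptor, through a G protein, keeps the cation channel TRPM1 closed, and GPR179 holds the regulators that switch the G protein off. OFF bipolar cells use ionotropic glutamate receptors and express other factors such as VSX1. The homeodomain proteins CRX and OTX2, which recognise TAATCC, are well known regulators of photoreceptor and bipolar genes. Several members are also used outside bipolar cells, Prkca and Bhlhe22 among them. In whole retina, fewer bipolar cells and less open chromatin per bipolar cell cannot be told apart.

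A region counts as called in a library when that library's list holds a peak in it, and one that is not called may be open below the caller's threshold. The lists held 36011 (18mo IOP replicate 3) to 66160 peaks (3mo contralateral control replicate 2), and the members' share of them stayed between 7.41 and 8.75 per 10000 listed peaks. The libraries also fell into sets by the shortest peak listed: 79 to 89 bp in the 6 untreated libraries, 114 to 122 bp in 5 others and 148 to 157 bp in the remaining 7. These sets held medians of 40, 49 and 39 member peaks per library, and of 52009, 57297 and 44568 listed peaks, in the same order. Member counts thus differed between the sets, without a steady rise or fall with the shortest peak. The first set holds the untreated libraries only, so peak width and the kind of control cannot be told apart there. The part of list length and peak width in the results was not tested beyond the stratified and equal-length values given. As a check of the tissue, the starts of all 5 rod markers were called in all 18 libraries, and those of 4 microglial, 4 pigment epithelial and 5 non-retinal genes in none. An uncalled start is not a sign of an absent cell type, since Tfap2a, Gad1 and Slc6a9 of the 4 amacrine markers, Pde6h of the cones and Isl2 of the ganglion cells were also at 0. Starts called throughout numbered 1 of 4 for cones, 1 of 4 for amacrine, 2 of 3 for horizontal and 1 of 4 for ganglion cells and 2 of 4 for Müller glia.

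The sequences that carry the main open sites are shown first. Each is the reference genome (GRCm38.p6, RefSeq) within 100 bp of the median summit, on the strand of the gene, with any annotated exon removed, and capitals mark TAATCC or its reverse complement GGATTA. The name gives the distance of the summit from the gene start, negative when upstream. Trpm1, Gpr179, Cabp5 and Prkca come first, with sites at or near a start or in an early intron. Prkca 85021 bp is shown because it was called only in control libraries, and the last pair are upstream sites called in nearly every library. Sites in exons (Vsx1, Bhlhe22) are not printed.
Trpm1 -1 bp (chr7:64153734-64153834, + strand): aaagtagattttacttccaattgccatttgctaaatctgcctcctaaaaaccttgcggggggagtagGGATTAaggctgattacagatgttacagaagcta
Trpm1 2080 bp (chr7:64155815-64156015, + strand): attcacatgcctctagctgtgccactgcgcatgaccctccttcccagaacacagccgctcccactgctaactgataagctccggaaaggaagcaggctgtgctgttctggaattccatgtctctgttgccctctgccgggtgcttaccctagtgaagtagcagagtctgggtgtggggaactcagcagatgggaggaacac
Gpr179 -344 bp (chr11:97352321-97352521, - strand): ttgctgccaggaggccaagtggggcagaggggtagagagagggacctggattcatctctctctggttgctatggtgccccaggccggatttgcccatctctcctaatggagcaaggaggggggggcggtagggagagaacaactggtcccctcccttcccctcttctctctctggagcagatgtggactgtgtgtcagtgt
Cabp5 -83 bp (chr7:13397949-13398131, + strand): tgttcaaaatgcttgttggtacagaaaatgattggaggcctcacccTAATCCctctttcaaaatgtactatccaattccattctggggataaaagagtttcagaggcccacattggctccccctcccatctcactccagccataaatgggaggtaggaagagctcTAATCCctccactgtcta
Prkca 45759 bp (chr11:108298069-108298269, - strand): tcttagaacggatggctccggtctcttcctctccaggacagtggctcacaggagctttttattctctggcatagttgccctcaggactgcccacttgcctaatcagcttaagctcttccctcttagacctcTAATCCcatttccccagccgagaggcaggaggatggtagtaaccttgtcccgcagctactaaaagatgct
Prkca 85021 bp (chr11:108258807-108259007, - strand): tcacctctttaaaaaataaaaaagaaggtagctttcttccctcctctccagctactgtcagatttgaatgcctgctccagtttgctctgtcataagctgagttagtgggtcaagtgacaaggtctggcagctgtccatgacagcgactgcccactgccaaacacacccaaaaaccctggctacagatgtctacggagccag
Pcp2 -2664 bp (chr8:3628109-3628309, - strand): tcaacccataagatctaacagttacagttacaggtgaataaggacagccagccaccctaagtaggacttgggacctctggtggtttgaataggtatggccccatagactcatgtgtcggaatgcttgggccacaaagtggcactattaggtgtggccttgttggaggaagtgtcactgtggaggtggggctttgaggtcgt
Bhlhe23 -2757 bp (chr2:180779557-180779757, - strand): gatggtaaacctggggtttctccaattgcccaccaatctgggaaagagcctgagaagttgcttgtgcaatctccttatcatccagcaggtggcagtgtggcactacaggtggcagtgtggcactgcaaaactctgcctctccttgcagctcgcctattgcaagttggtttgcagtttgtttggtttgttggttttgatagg

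TAATCC was searched on both strands in the full windows, exons included. It matched 14 of the 61 member regions (23.0%), against 15.4% of 73449 consensus regions in the genome. It occurred 2 times each at Cabp5 -83 bp, Cabp5 10313 bp and Gpr179 -3633 bp and 1 time at the Trpm1 start, but not at Trpm1 2080 bp, Bhlhe23 -2757 bp, Pcp2 -2664 bp or Gpr179 -344 bp. Without Prkca, 5 of 24 regions held it. TAATTA, a core of other homeodomain sites, matched 2 member regions (3.28%, against 4.16% of all). The E-box CATATG matched 0 (2.87% of all), and TGANTCA, the AP-1 motif, matched 3 (4.92%, against 6.62%). These are letter matches in a window and say nothing of binding.

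The starts of these genes differed widely in how often they were called. A start counted as called when a peak lay between 1 kb upstream and 100 bp downstream of it. Prkca, encoding protein kinase C alpha (the usual marker of rod bipolar cells), and Gpr179 were called in 18 of 18 libraries. Cabp5, a calcium-binding protein of rod and some cone bipolar cells, followed with 14 libraries, Trpm1 with 7 and Bhlhe23, a factor needed for rod bipolar maturation, with 6. Bhlhe22 had 2, Vsx1 and Grm6 had 1 each, and Pcp2, a modulator of the G protein Go, had 0. Among 21924 protein-coding genes 46.6% had a start called in all 18 libraries, 13.2% in 1 to 17 and 40.2% in none. The members thus had 2 of 9 starts called throughout and 6 of 9 called in some libraries only. With 1 kb on either side of the start, a window chosen after seeing the data, Vsx1 was called in 8 libraries, Grm6 in 9 and Bhlhe22 in 8, through peaks that lay just inside the gene.

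**Figure D1:**
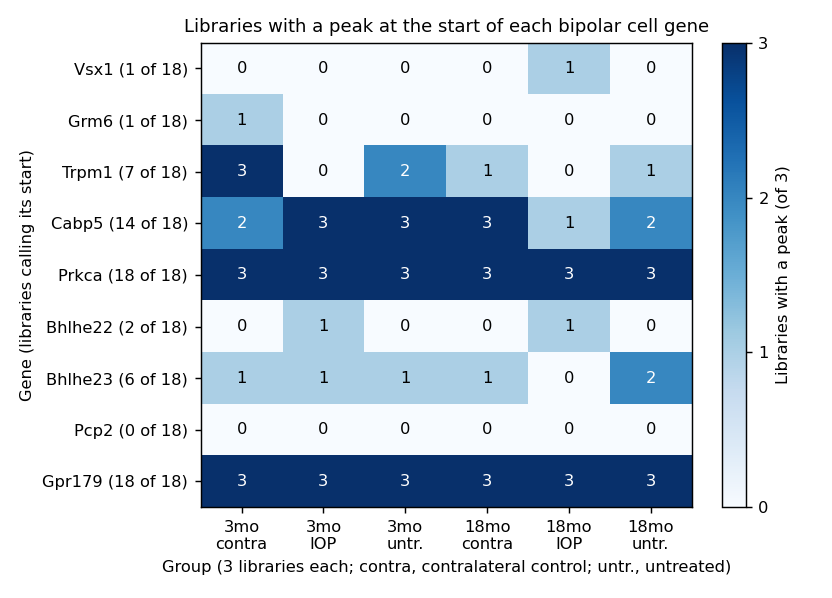
Number of libraries, of 3 in each of the 6 groups (columns), with a peak between 1 kb upstream and 100 bp downstream of the start of each gene (rows); darker squares stand for more libraries. Prkca and Gpr179 are called in all 18 libraries and Pcp2 in 0, and the Trpm1 start is called in 3 of 3 contralateral controls and 0 of 3 IOP retinas at 3 months.

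Among the genes of the mGluR6 cascade, Grm6 (ENSMUSG00000000617.14, chr11:50850685-50866208, + strand) held 4 consensus regions. The region chr11:50850745-50851544, just inside the gene in an early exon, was called in 9 libraries. Its mean percentile by -log10 q within a library's list, where 100 is the strongest peak, was 15.8 ± 13.2 (SD, n = 9 libraries). A region called in all 18 libraries lay at -9129 bp over the promoter of Zfp879, a zinc finger gene. The account of the Grm6 window is not complete, so the ranks of its regions are not compared with those of the other members. Its start calls and peak numbers are given beside theirs.

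Trpm1 (ENSMUSG00000030523.18, chr7:64153835-64269775, + strand) held 6 consensus regions, 2 of them called in all 18 libraries. Both lie in introns early in the gene. The one at 2080 bp (chr7:64155694-64156094) ranked higher, at 58.9 ± 12.2, with a median fold over local background of 7.97, and the one at 9804 bp (chr7:64163296-64163982) stood at 43.5 ± 9.3 (SD, n = 18 libraries each). An additional intron site at 11264 bp was called in 16 libraries. The start itself (chr7:64153674-64154021, summit at -1 bp) was called in 7 libraries and ranked at only 20.6 ± 12.5, so the channel gene was more regularly open inside than at its start.

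Gpr179 (ENSMUSG00000070337.4, chr11:97332109-97352077, - strand) was open just upstream of its start in every library. That region (chr11:97352163-97352630, -344 bp) ranked at 41.0 ± 19.3 (SD, n = 18), and an intron site at 1846 bp was called in 12 libraries. A further region called in all 18 libraries, at -10224 bp, is the promoter of the neighbouring gene Socs7.

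Among the signalling and calcium-binding genes, Cabp5 (ENSMUSG00000005649.17, chr7:13398132-13408887, + strand) had a site at its start (chr7:13397937-13398166) in 14 libraries and one in an exon near its end, at 10313 bp, in 12. The start site ranked at 20.9 ± 14.1 (SD, n = 14). Pcp2 (ENSMUSG00000004630.18, chr8:3623371-3625545, - strand) had no consensus region in the gene itself. Its sites lay at -2664 bp (chr8:3628072-3628311), called in 16 libraries with a mean percentile of 43.7 ± 19.9, and at -5544 bp (chr8:3630683-3631444), called in 18. The second ranked at 89.6 ± 5.4 and lies in an exon of Stxbp2, 134 bp from a start of that gene, so it cannot be assigned to Pcp2 from position.

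Of the factors, Vsx1 (ENSMUSG00000033080.9, chr2:150680702-150689360, - strand) had a single region, at 316 bp in an exon (chr2:150688642-150689366), called in 8 libraries at a mean percentile of 20.8 ± 14.0. Bhlhe22 (ENSMUSG00000025128.7, chr3:18054174-18057517, + strand) had regions at 409 bp and 1458 bp, both in its exon and called in 8 libraries each. Bhlhe23 (ENSMUSG00000045493.4, chr2:180774381-180776900, - strand) was more regularly open upstream than at its start. A site at -2757 bp (chr2:180779425-180780030) was called in 17 libraries and ranked at 42.6 ± 12.4, while its start region (chr2:180776628-180777022) was called in 6 and ranked at 11.5 ± 10.5. The upstream sites of Pcp2 and Bhlhe23 and the exon site of Cabp5 were picked for description after their values were seen.

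**Figure D2:**
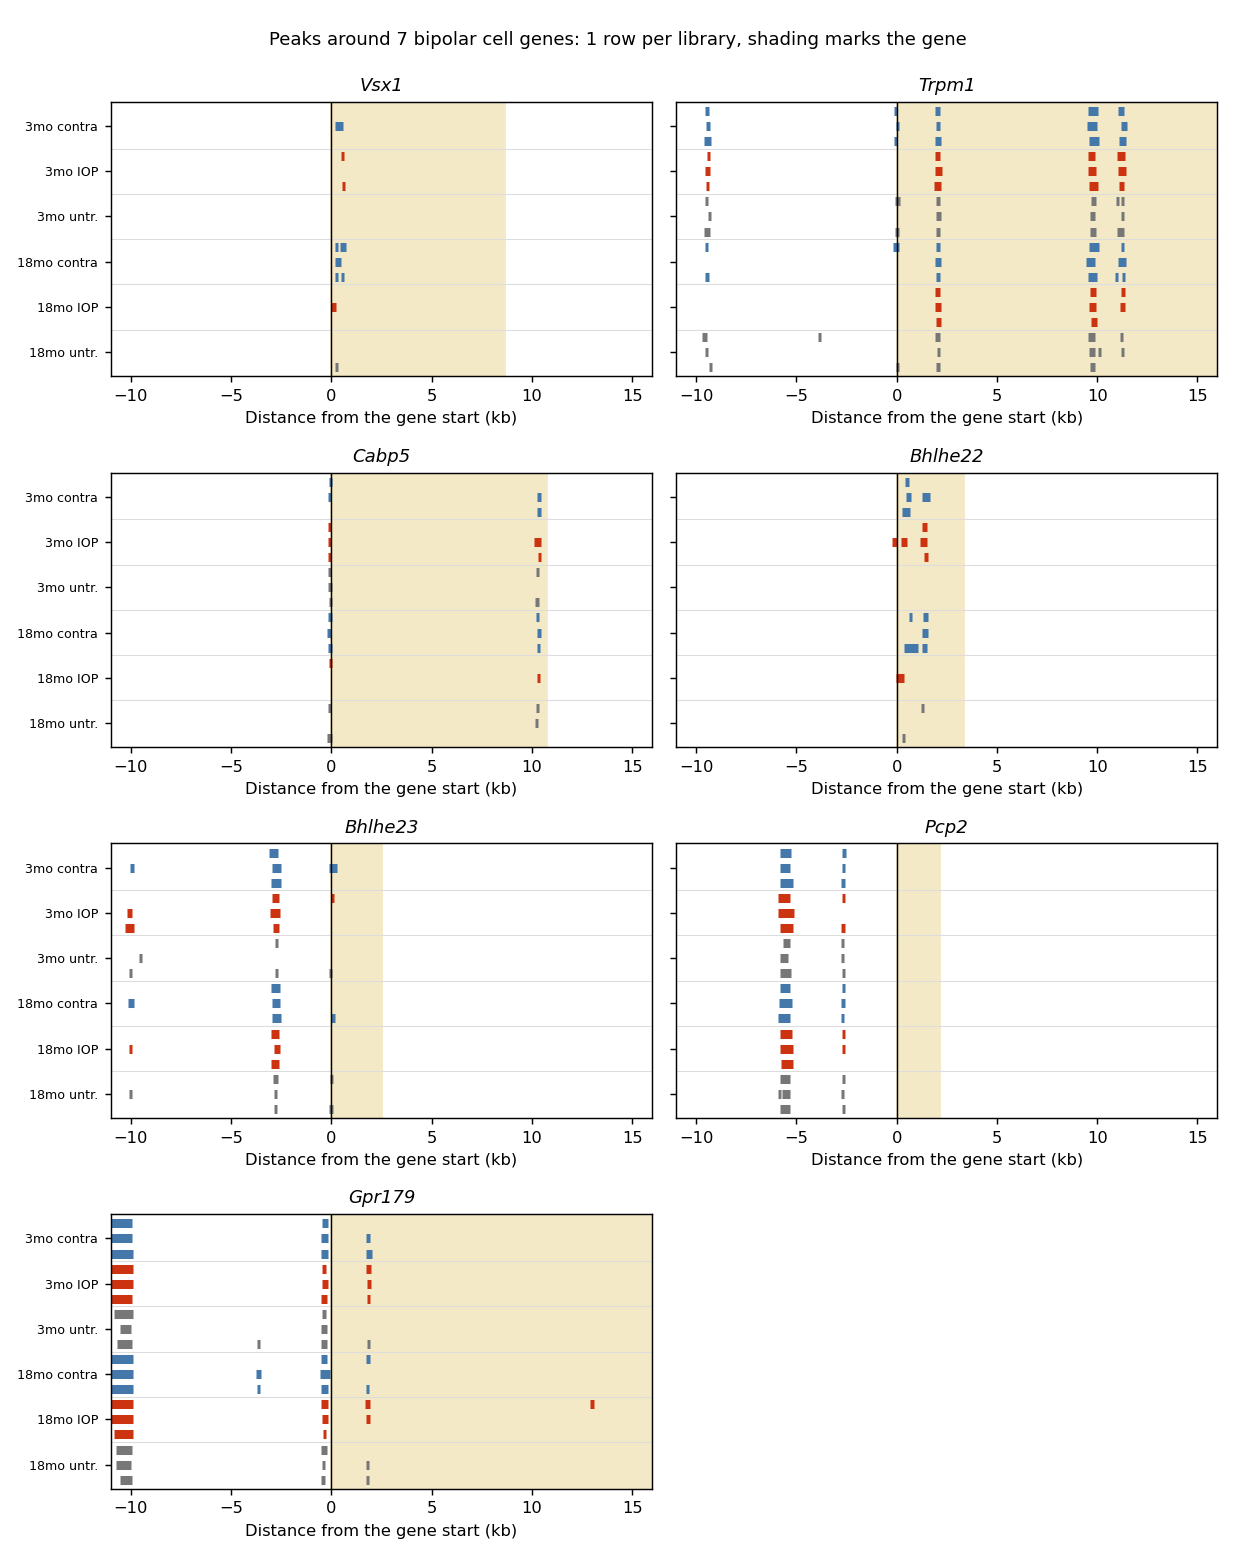
Listed peaks around 7 of the genes, by distance from the gene start in kb (horizontal) and library (vertical, 1 row each, grouped by age and treatment: blue contralateral control, red IOP, grey untreated); shading marks the gene, Trpm1 and Gpr179 continue beyond the right edge, and peaks under 150 bp are drawn at that width. Columns of marks at fixed distances show sites called in most libraries, such as Trpm1 at 2080 bp in 18 of 18 and Bhlhe23 at -2757 bp in 17 of 18.

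Prkca (ENSMUSG00000050965.14, chr11:107933387-108343928, - strand) spans 410.54 kb and held 37 of the 61 consensus regions, 11 of them called in all 18 libraries. Its start region (chr11:108342718-108344372) was broad, with a median peak width of 1480 bp, and ranked at 85.6 ± 2.9. An intron site at 45759 bp (chr11:108297374-108298593) ranked close to it, at 85.5 ± 5.3 (SD, n = 18 libraries each), and one at 183469 bp (chr11:108160179-108160904) reached 77.1 ± 5.3 with a median fold of 13.17. A site at -4367 bp, inside an intron of Apoh, was also called in every library. Among the Prkca regions called in all 18 libraries, the SD of the summit position ran from 13.2 bp at 183469 bp to 54.3 bp at 19993 bp. It was 20.2 bp at 45759 bp. Summits were less fixed at some other regions, with an SD of 125.1 bp at 120115 bp, called in 17 libraries. A further 21 merged Prkca regions had a peak in 1 library only.

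**Figure D3:**
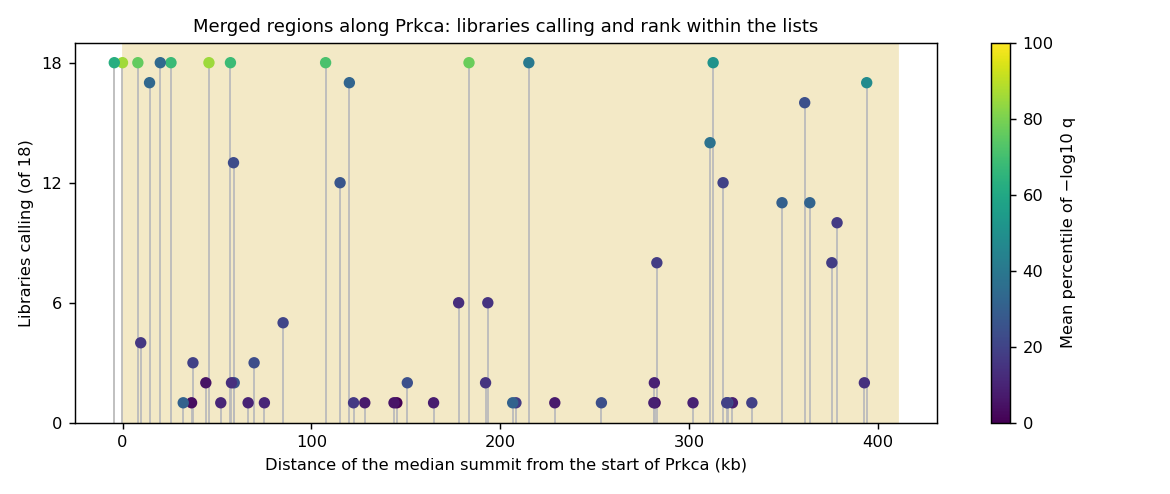
Merged regions in the Prkca window, by distance of the median summit from the gene start in kb (horizontal) and number of libraries calling (vertical, of 18); colour is the mean percentile of -log10 q over the calling libraries and shading marks the gene. The regions called in all 18 libraries are spread from -4367 bp to 312747 bp, and the start and the site at 45759 bp have the highest colours, at 85.6 and 85.5.

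Over the 9 genes, 17 of 61 consensus regions (27.9%) were called in all 18 libraries, against 33.6% of all consensus regions. Of the 17, Prkca held 11 and the other members 6. Among these 6, the sites at Grm6 -9129 bp, Gpr179 -10224 bp and Pcp2 -5544 bp lie at a promoter or exon of a neighbouring gene. A further 8 of the 61 were called in 16 or 17 libraries, 20 in 7 to 15 and 16 in 2 to 6. By position, 40 lay in introns, 7 between genes, 6 at the promoters of the members, 2 at promoters of other genes and 6 in exons.

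The number of peaks per gene and library is given next, since it was the measure compared between groups. Trpm1 had 5, 6 and 5 peaks in the 3mo contralateral controls, 4, 5 and 5 in 3mo IOP and 6, 5 and 5 in 3mo untreated retinas. At 18 months it had 6, 3 and 6 in contralateral controls, 3, 4 and 2 in IOP and 6, 5 and 4 in untreated retinas. The 18mo IOP values overlap those of the contralateral controls through replicate 2 of the controls, and the lowest value was that of the shortest list, 18mo IOP replicate 3.
Prkca had 18, 34 and 17 peaks in the 3mo contralateral controls, 26, 20 and 20 in 3mo IOP and 25, 22 and 29 in 3mo untreated retinas. At 18 months the values were 32, 26 and 25, then 28, 25 and 19, and 23, 24 and 28 in the same order. The highest value belongs to 3mo contralateral control replicate 2, which has the longest list.
Vsx1 had 2, 1 and 2 peaks in 18mo contralateral controls and 0 or 1 in each of the other 15 libraries. Cabp5 had 2, 2 and 2 in 18mo contralateral controls and 1, 1 and 0 in 18mo IOP retinas, groups that do not overlap, while at 3 months it had 1, 2 and 1 against 1, 2 and 2. It was the only member with such a separation at either age: at 18 months every IOP library was below every contralateral library in 4.31% of 30598 genes and above in 0.203%, and at 3 months in 0.291% and 0.294%. Bhlhe22 had 2, 1 and 2 in 18mo contralateral controls against 0, 1 and 0 in 18mo IOP, which meet at 1, and 0 in all 3 of the 3mo untreated retinas. Of the remaining genes, Grm6 ranged from 1 to 5 (median 3), Bhlhe23 from 1 to 3 (median 2), Pcp2 from 1 to 3 (median 2) and Gpr179 from 2 to 4 (median 3). For scale, protein-coding genes had a median of 1 peak per window and library.

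**Figure D4:**
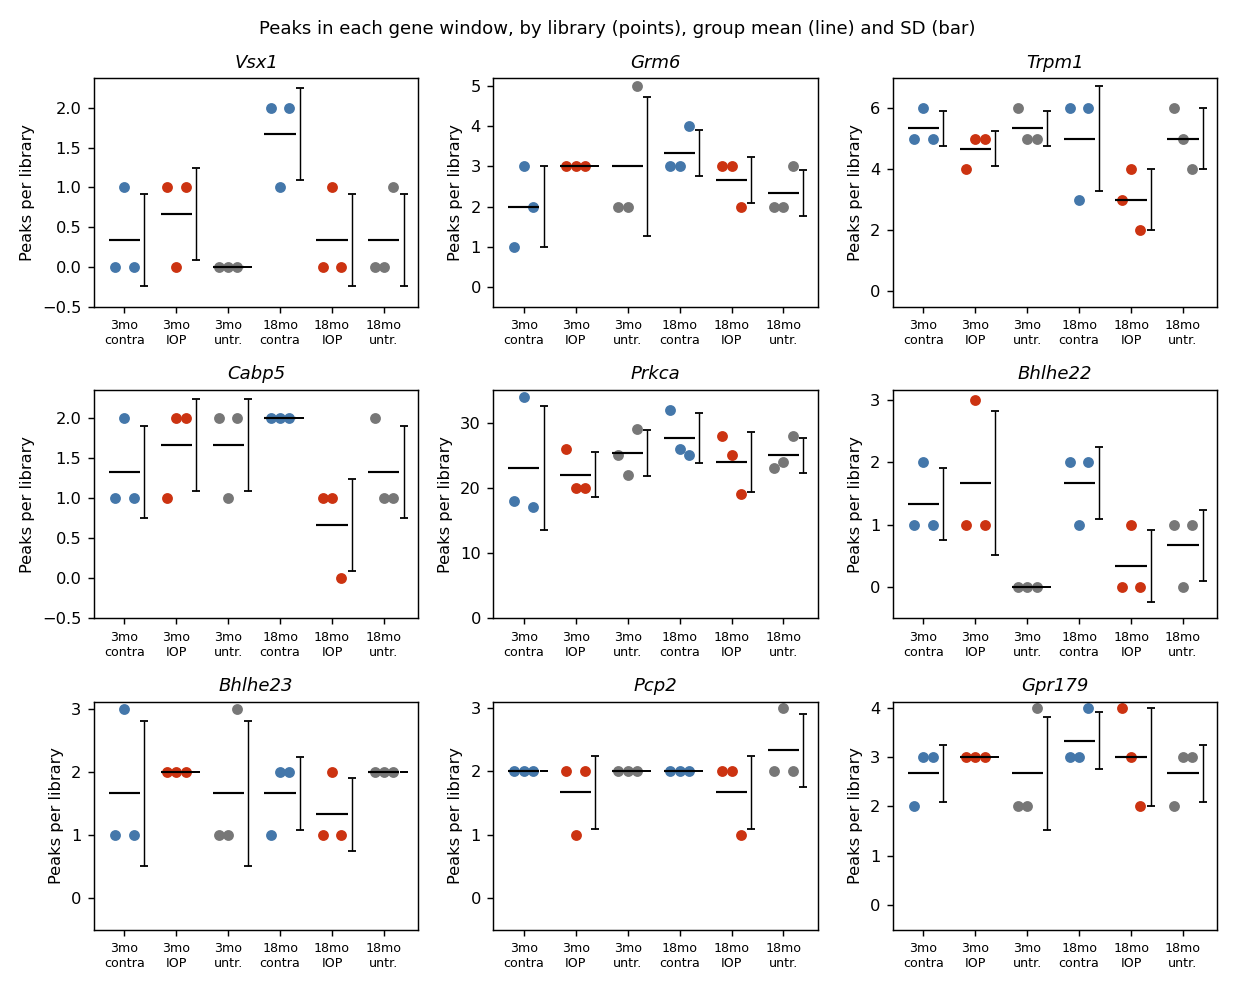
Peaks per library in the window of each gene; points are libraries, horizontal lines are group means and bars SD (n = 3), with blue for contralateral control, red for IOP and grey for untreated retinas (contra and untr. on the axis). Vertical scales differ between panels. Cabp5 has 2 peaks in each 18mo contralateral control and 1, 1 and 0 in 18mo IOP retinas.

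With age, no member passed the test. The 6 control retinas of 18 months were compared with the 6 of 3 months. Mean peak numbers differed (18mo minus 3mo) by 0.833 for Vsx1 (1.0 ± 0.894 against 0.167 ± 0.408, SD, n = 6 each), the smallest p of the 9 genes (exact permutation test, two-sided, p = 0.152). Prkca differed by 2.17 peaks (26.3 ± 3.27 against 24.2 ± 6.55, exact permutation p = 0.515). Trpm1 was the only member with a negative difference, -0.333 (exact permutation p = 0.773). Grm6 and Gpr179 differed by 0.333 each, Bhlhe22 by 0.5, and Cabp5, Bhlhe23 and Pcp2 by 0.167 each. Adjusted p-values (Benjamini-Hochberg over 26715 genes) were 1.0 for all 9, and at an unadjusted p under 0.05 there were 0 members, against 1.4% of genes with more peaks at 18 months and 0.176% with fewer. The directions are not firm: in untreated retinas alone the differences for Grm6 (-0.667), Cabp5 (-0.333) and Prkca (-0.333) were negative.

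Calls per region gave the same outcome for age. Of the 61 consensus regions 24 were called in more 18mo than 3mo controls, 8 in fewer and 29 in equal numbers, beside 30.0% and 18.0% of all consensus regions. Only 11 member regions had margins that allow a p under 0.05 in Fisher's exact test (13.4% of all consensus regions have), and 0 of them reached it (smallest p = 0.242, exact, adjusted p = 1.0). Among 9868 testable regions in the genome 3.19% were called more often at 18 months and 0.385% at 3 months at that unadjusted level, and 0 passed the adjustment.

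After the pressure rise, no member passed the test either. Over both ages, with age as a stratum, Trpm1 had 3.83 ± 1.17 peaks in IOP and 5.17 ± 1.17 in contralateral control retinas (SD, n = 6 each), a difference of -1.33 (exact permutation within age, two-sided, p = 0.13). Prkca had 23.0 ± 3.79 against 25.3 ± 6.98, a difference of -2.33 (exact permutation p = 0.51), which became 0.417 without 3mo contralateral control replicate 2. Vsx1, Cabp5 and Bhlhe22 differed by -0.5 each, Pcp2 by -0.333 and Grm6 by 0.167, while Bhlhe23 and Gpr179 did not differ in mean. All adjusted p-values were 1.0 over 23623 genes, and 0 members had an unadjusted p under 0.05, against 1.08% of genes with fewer peaks after IOP and 0.161% with more. At 18 months alone all 9 differences were negative, from -0.333 for Bhlhe23, Pcp2 and Gpr179 to -2.0 for Trpm1 and -3.67 for Prkca. Of all 30598 genes with a peak, 49.7% had fewer and 9.67% more peaks after IOP at that age. At 3 months 3 were negative (Trpm1 -0.667, Prkca -1.0, Pcp2 -0.333) and 6 positive, beside 29.4% and 22.0% of all genes. Within 1 age 3 libraries against 3 cannot give p below 0.1, so these are values without a test. Whether the effect of IOP differed by age, tested by permuting treatment within each age and chosen after seeing the data, gave an unadjusted p of at least 0.08 for all 9 genes (exact permutation, adjusted p = 1.0), and 0.339% of genes were under 0.05. The 18mo IOP lists were also shorter (36011 to 48723 peaks) than the 18mo contralateral lists (51166 to 60755). With lists cut to the same length (36011 peaks each) the difference over both ages was 2.17 for Prkca and -0.5 for Trpm1 (exact permutation p = 0.59). It was 0.0 for Cabp5 and -0.167 for Vsx1, Bhlhe22 and Pcp2. Differences at 18 months alone were not computed at equal length, so the part of list length in them was not tested.

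Of the 61 regions, 11 were called in more IOP and 19 in more contralateral libraries, beside 11.5% and 36.6% of all consensus regions. There were 8 testable member regions (7.57% of all consensus regions are testable). Of these 8, 0 had an unadjusted p under 0.05 in the exact conditional test stratified by age (smallest p among them 0.26, adjusted p = 0.785). Among 5572 testable regions in the genome 1.62% and 3.43% reached that level in IOP and in controls, and 0 passed the adjustment. The Trpm1 start and the Prkca site at 85021 bp were not among the 8, because their margins allow no p below 0.05. Both had fewer calls after IOP and reached that lowest possible value (exact conditional test stratified by age, unadjusted p = 0.05 each). No adjusted p was computed for either.

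Regions called in 3 of 3 libraries of one group and 0 of 3 of the other were counted at each age, with no test. Regions called in IOP only numbered 0 of 61 at 3 months (0.217% of all consensus regions) and 0 at 18 months (0.239%). At 3 months 1 was called in contralateral controls only (0.241% of all), the Trpm1 start described above. It was called in 3mo contralateral control replicates 1, 2 and 3, in 3mo untreated replicates 4 and 6, in 18mo contralateral control replicate 1 and in 18mo untreated replicate 6. It was thus called in 0 of 6 IOP retinas and in 4 of 6 contralateral and 3 of 6 untreated controls. Its percentiles ran from 9.3 to 45.9, and its folds from 3.58 to 6.84. With only peaks of -log10 q of at least 5 it was no longer in all 3 of the controls, and when a peak had to cover 50% of the region the difference in share was 0.0. None of the 3mo contralateral peaks covers that much of the region, so neither group had a call under that rule. The value of 0.0 was therefore fixed by peak width.
At 18 months 2 member regions were called in contralateral controls only, beside 2.23% of all consensus regions. One lies in an intron of Prkca (chr11:108258815-108258992, 85021 bp), called in 18mo contralateral control replicates 1, 2 and 3, 3mo contralateral control replicate 2 and 18mo untreated replicate 5. The other lies in the Bhlhe22 exon (chr3:18055343-18055826, 1458 bp). It was called in all 3 of the 18mo contralateral controls and 0 of 3 IOP retinas, but at 3 months in 1 contralateral control and all 3 IOP retinas. With lists of the same length the difference in the share of libraries calling at 18 months was 0.0 for both, and the count of such regions was 0 at either age.

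The kind of control was compared because untreated and contralateral retinas are pooled in the age comparison. Bhlhe22 had 0.333 ± 0.516 peaks in untreated and 1.5 ± 0.548 in contralateral controls (SD, n = 6 each), a difference of -1.17 (exact permutation p = 0.0216, adjusted p = 0.328), where 1.62% of genes had more peaks in contralateral and 7.27% in untreated controls at an unadjusted p under 0.05. The other members had p of at least 0.152. Of 11 testable member regions (13.4% of all are testable) 0 had an unadjusted p under 0.05 (smallest p = 0.0801, exact), against 5.89% more often called in untreated and 5.55% in contralateral controls. Untreated lists covered 13.51 to 17.13 Mb and contralateral lists 20.2 to 26.15 Mb, and the part of peak width in the Bhlhe22 value was not tested.

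A wider list of 25 bipolar genes (G protein subunits and regulators of the mGluR6 cascade, transcription factors and subtype markers) was examined in the same way. It held 109 consensus regions in 23 genes, 33 of them (30.3%, against 33.6% of all) called in all 18 libraries. Starts were called in all 18 libraries for 10 of 25 genes, where 46.6% of protein-coding genes had that. With age, 0 of 25 genes and 0 of 15 testable regions had an unadjusted p under 0.05. Between untreated and contralateral controls 8 of 25 genes did, 5 with more peaks in untreated (7.27% of all genes) and 3 with fewer (1.62%). After IOP, 0 genes had more (0.161% of all) and 2 had fewer peaks (1.08%) at that level, and 0 of 9 testable regions did. Gnao1, encoding the Go alpha subunit, had 5.33 ± 1.03 peaks in IOP and 9.17 ± 3.31 in contralateral controls (SD, n = 6 each, exact permutation p = 0.025, adjusted p = 1.0). Its untreated retinas had 5.83 ± 1.17, a difference from contralateral controls of -3.33 (exact permutation p = 0.0411). Neto1, an auxiliary subunit of kainate receptors, had 0 peaks in all 6 IOP libraries and 0 to 4 in contralateral controls (exact permutation p = 0.02, adjusted p = 1.0). Its means were 1.33 ± 1.37 in contralateral and 0.5 ± 0.837 in untreated controls, so it was rarely called in any group. The IOP difference was -2.0 at 3 months and -0.667 at 18 months. One region at the promoter of Lhx3, a homeobox gene, was called in 3 of 3 contralateral and 0 of 3 IOP retinas at 18 months, 1 of 109 regions where 2.23% of all were.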

How the data were processed

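ATAC-seq peak lists of 18 mouse retina libraries were used as deposited, 1 list per library. The authors called peaks with MACS2 at q of at most 0.05 on mm10 (the processing notes also name STAR 2.7.8a, HOMER, edgeR and bedtools 2.29.2), without pooling replicates. Trimming, duplicate removal and transposase shift are not given in the sources used here, and the extraction text of the labels describes crosslinking and immunoprecipitation while the study's methods describe tagmentation. The deposited columns are a score (10 times the -log10 q-value), the fold (a ratio) of the summit over local background, -log10 p-values and -log10 q-values, and the summit offset. The lists hold no reads per region, so read depth per region is unknown, no count model was run and precision rests on 3 libraries per group.

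Calls were tested with Fisher's exact test or its conditional form stratified by age on all consensus regions, and peaks per gene with exact permutation tests on all genes (Python 3.11.15, SciPy 1.17.1), at 0.05 after Benjamini-Hochberg adjustment over testable regions or genes. Scripts were tested on simulated data. Groups came from the sample titles. All 9 members were named, with their start regions, the best ranked other region called in all 18 libraries at no other promoter, and regions exclusive to a group. One item is not reported here. Of the wider list, genes with an unadjusted p under 0.05 or an exclusive region with age or IOP were named. Members and lists were chosen with earlier results of these data known. Alternatives covered threshold, list length, overlap, window, strata and omitted replicates.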

Additional observations from a re-analysis of the deposited data

Results flagged for a closer look

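In 3 cases, 1 of 6 control libraries of an age differed by 1 peak from the other 5, which had equal counts. Vsx1 had 1 peak in 3mo contralateral control replicate 2 and 0 in the other 5 controls of that age. Bhlhe23 had 1 peak in 18mo contralateral control replicate 1 and 2 in each of the others. Pcp2 had 3 peaks in 18mo untreated replicate 5 and 2 in each of the others. Dixon's criterion was applied to 20 sets of controls. It is made for continuous values, and where 5 counts are equal it flags any other value, even 1 peak away. Its usual error rate therefore does not hold for these small counts, and each case rests on a single peak.

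The Bhlhe22 exon region at chr3:18055343-18055826 stood out in the difference between ages. The share of libraries calling it was 0.667 higher in IOP than in contralateral retinas at 3 months, while at 18 months the difference was -1.0, a difference between ages of -1.67 (exact permutation of treatment within age, p = 0.02, adjusted p = 1.0). This test was chosen after seeing the data. Of 5572 regions tested 1.35% reached an unadjusted p under 0.05 and 0 passed the adjustment, as did 0 of the 8 member regions tested.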

How the results depend on the processing

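No member region or gene passed the adjusted threshold for age or IOP under any alternative run. Under other settings 293 values and counts scored as the same, 14 as moved and 13 as reversed. With a library left out these were 318, 9 and 3. A gene difference scored as the same if its sign did not turn and it stayed on its side of the threshold. One that fell to 0 or began at 0 thus scored as the same, as did counts within a fixed ratio. The tally includes the setting on summits, which changes nothing by construction. With only peaks of -log10 q of at least 5, the age difference was -0.167 for Cabp5 and -0.5 for Gpr179, and regions called in contralateral controls only numbered 0 at 3 months and 1 at 18 months. With all lists cut to 36011 peaks the age difference was -0.667 for Cabp5, -0.333 for Bhlhe22 and -0.667 for Gpr179, the IOP difference was 2.17 for Prkca, and 0 regions were called in contralateral controls only at either age. When a peak had to cover 50% of a region, the age difference was -0.167 for Vsx1, -0.167 for Grm6 and -0.333 for Cabp5, and 2 regions were called in all libraries. In that setting 4 regions were called less in untreated than in contralateral controls (adjusted p from 0.0118 to 0.0291), at Gpr179 -10224 bp, Prkca 107537 bp, Bhlhe23 -2757 bp and Trpm1 9804 bp, where 52.1% of 13966 testable regions passed. Untreated peaks are the narrowest, which this rule penalises by construction. Windows of 50 kb on either side held 40 regions called in all libraries. With the class of shortest peak as a stratum the age difference was -0.0556 for Bhlhe23, and in untreated controls alone it was -0.667 for Grm6, -0.333 for Cabp5 and -0.333 for Prkca. The cause of these changes was not tested.

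Leaving out 1 library gave 0 to 2 regions called in IOP only at 3 months (2 without 3mo contralateral control replicate 2, 1 without 3mo IOP replicate 2) and 1 to 2 in contralateral controls only (2 without 3mo contralateral control replicate 1 or 3mo IOP replicate 1 or 2). At 18 months it gave 0 to 1 in IOP only (1 without 18mo contralateral control replicate 1 or 2) and 2 to 4 in contralateral controls only (4 without 18mo contralateral control replicate 2 or 18mo IOP replicate 2), and 17 to 19 regions called in every library. The IOP difference ran from -0.0833 (without 3mo contralateral control replicate 1) to 0.417 for Grm6 and from -3.83 to 0.417 (without 3mo contralateral control replicate 2) for Prkca, and the age difference from -0.533 to 0.0667 (without 18mo contralateral control replicate 2) for Trpm1. Same-numbered IOP and contralateral libraries correlated in their deviations by -0.0898 to 0.0974, and other-numbered ones by -0.152 to 0.144. With 3 libraries per group this cannot tell whether a number marks the eyes of 1 animal. As no label ties eyes to animals, the numbers were not taken as pairs. With the replicate number as a block, 0 member regions and 0 genes passed for age or IOP, as without it (Trpm1 IOP difference -1.33, exact p = 0.25). Over 22 alternatives the unadjusted exact p of Trpm1 after IOP ran from 0.03 to 0.59, with adjusted p of at least 0.913. Untreated and contralateral controls separately, 3 against 3, allow no p below 0.1. Requiring the summit in the region changes nothing by construction.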
